A study of Rattus norvegicus with 6 samples.

Results

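*Gfap*, *Vim*, *Nes* and *Synm*, 4 of the 30560 genes in the count tables, encode the intermediate filament proteins of astrocytes: glial fibrillary acidic protein, vimentin, nestin and synemin. They were chosen by gene symbol and followed through every nucleus class of 6 single-nucleus RNA libraries from the brains of male wild type (WT) Wistar rats of 12 weeks of age, 48 h after the operation. Rats of the MCAO group had a permanent occlusion of the right middle cerebral artery by a filament (MCAO, middle cerebral artery occlusion), and Sham rats had the same operation with no filament. Infarcts were graded as moderate (mMCAO, 3 rats) or severe (sMCAO, 4 rats) from brain scans, and hemispheres were separated. The nuclei of the rats of each grade were pooled per hemisphere, which gave 1 library each of Sham L and Sham R (4 rats), mMCAO contra and sMCAO contra (the hemisphere opposite the infarct), and mMCAO ipsi and sMCAO ipsi (the infarcted hemisphere). The groups compared were Sham, MCAO contra and MCAO ipsi, with 2 libraries each. The Sham libraries were the hemispheres of the same rats and the MCAO libraries of a group differed in severity, so that the spread between rats of 1 condition was not measured and each p-value refers to the spread between these libraries.

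Intermediate filaments are assembled from dimers of rod-shaped proteins and give a cell its resistance to stretch. In mature astrocytes GFAP is the main subunit, while vimentin and nestin are abundant in radial glia and other neural precursors and synemin joins filaments that another subunit builds. A rise of GFAP and vimentin is the textbook sign of a reactive astrocyte, and vimentin and nestin are also filament proteins of endothelial cells and other mesenchymal cells.

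Promoters are shown because *Gfap*, *Vim* and *Nes* differed in level between cell classes and conditions, and *Synm* between cell classes. Each line gives the 250 bases before the annotated start in RefSeq's rat assembly GRCr8 (the counts used mRatBN7.2), read 5′ to 3′ on the gene's strand, and all 4 symbols were found in that table. Capitals mark matches on either strand to 3 common promoter motifs: TATAAA, which is the TATA box, CCAAT, the site of the factor NF-Y, and GGGCGG, which is the GC box. No base of these motifs overlapped another match.
Gfap (ENSRNOG00000002919; chr10:88361662-88361911, minus strand): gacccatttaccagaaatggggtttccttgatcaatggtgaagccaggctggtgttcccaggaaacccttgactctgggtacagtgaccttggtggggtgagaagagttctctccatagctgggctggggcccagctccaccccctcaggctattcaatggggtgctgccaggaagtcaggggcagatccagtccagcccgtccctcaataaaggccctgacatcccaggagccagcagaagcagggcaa
Vim (ENSRNOG00000018087; chr17:81577011-81577260, plus strand): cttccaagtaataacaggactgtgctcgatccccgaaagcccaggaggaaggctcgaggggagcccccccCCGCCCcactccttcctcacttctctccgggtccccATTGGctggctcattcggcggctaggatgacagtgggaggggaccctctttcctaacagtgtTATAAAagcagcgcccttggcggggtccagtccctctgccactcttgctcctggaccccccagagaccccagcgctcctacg
Nes (ENSRNOG00000018681; chr2:175736338-175736587, plus strand): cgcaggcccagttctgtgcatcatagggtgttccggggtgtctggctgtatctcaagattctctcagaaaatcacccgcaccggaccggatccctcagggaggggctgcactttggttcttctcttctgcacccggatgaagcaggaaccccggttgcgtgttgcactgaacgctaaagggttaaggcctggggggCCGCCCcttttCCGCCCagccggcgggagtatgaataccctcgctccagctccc
Synm (ENSRNOG00000014030; chr1:130773825-130774074, minus strand): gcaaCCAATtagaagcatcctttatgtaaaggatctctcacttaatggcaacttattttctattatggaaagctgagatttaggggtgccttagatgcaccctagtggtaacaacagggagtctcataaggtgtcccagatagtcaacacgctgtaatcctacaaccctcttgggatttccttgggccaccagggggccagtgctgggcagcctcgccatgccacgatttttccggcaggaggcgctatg

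The *Vim* window held TATAAA at positions -82 to -77 relative to the start, a form present in 12.9% of 33469 rat promoter windows. It also held CCAAT on the minus strand at -144 to -140 and GGGCGG on the minus strand at -180 to -175, which 34.0% and 30.5% of windows hold. The *Nes* window held GGGCGG on the minus strand at -54 to -49 and at -43 to -38, and the *Synm* window held CCAAT at -246 to -242. None of these 3 motifs was found in the *Gfap* window. The letters TTCNNNGAA (bound by STAT factors; 7.67% of windows) and TGANTCA (bound by AP-1; 6.34%) were in none of the 4 windows. The percentages count windows that start 250 bases before each gene's start in the same table.

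The 6 libraries held 8665 to 14491 nuclei within the quality limits, 73649 in all, with 33012945 to 52513380 deposited UMIs (unique molecular identifiers, each a counted transcript molecule) per library and a median of 2059 to 3360 UMIs per nucleus. Pairs of libraries shared 118 to 281 cell barcodes. Nuclei were assigned to classes by marker genes that did not include the 4 filament genes, which gave 2002 astrocyte-like, 1419 oligodendrocyte precursor (OPC)-like, 7035 oligodendrocyte-like, 855 vascular (endothelial, mural or fibroblast)-like and 2934 myeloid-like nuclei, named without the suffix from here on, and 14.12% of nuclei had no class. All 19 astrocyte markers had UMIs in the astrocytes of every library, with a summed level of 19350 to 31800 CPM. CPM is a gene's count per 1000000 summed UMIs of a class in a library, and where a group has a pair of values they stand for L and R in Sham and for mMCAO and sMCAO in the MCAO groups. Astrocytes were shallower in Sham, with a median of 763 and 615 UMIs per nucleus, against 996.5 and 859 in contra and 1294 and 2280 in ipsi libraries. The share of astrocyte UMIs that matched the neuronal profile of the same library was 24.2% and 22.4% in Sham, 13.7% and 16.9% in contra and 9.0% and 4.32% in ipsi libraries. Subtracting these UMIs changed no call of the 4 genes in astrocytes. Neurons held at most 7.05 CPM of *Gfap*, 8.35 of *Vim* and 0.813 of *Nes*, so that this step could hardly alter the counts of these genes.

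The first comparison asked how filament genes of astrocytes differed between the infarcted hemisphere and both references. *Gfap*, *Vim* and *Nes* rose in MCAO ipsi astrocytes against Sham and against MCAO contra, and *Synm* did not pass the test in either comparison. Sham astrocytes had *Gfap* at 257 CPM (46 UMIs from 203 nuclei of L) and 212 CPM (30 UMIs from 175 nuclei of R). The contra level was 520 CPM with moderate infarction (207 UMIs, 362 nuclei) and 1040 with severe (268 UMIs, 251 nuclei), and the ipsi level was 2424 CPM with moderate (1609 UMIs, 458 nuclei) and 3833 with severe infarction (5689 UMIs, 553 nuclei). The 3 groups did not overlap, and sMCAO exceeded mMCAO in both hemispheres. The log2 fold change of *Gfap* in MCAO ipsi was 3.64 ± 0.36 (SE, 2 libraries per group) against Sham (adjusted p = 0.000223 by the quasi-likelihood test of edgeR, with Benjamini-Hochberg correction over 6602 genes) and 1.96 ± 0.31 against MCAO contra (adjusted p = 0.00228, same edgeR fit).

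*Vim* had 1 UMI in Sham L astrocytes (5.59 CPM) and none in Sham R. Contra astrocytes had 15.1 and 38.8 CPM (6 and 10 UMIs), and ipsi astrocytes had 258 and 728 CPM (171 and 1080 UMIs). Both ipsi libraries lay above the other 4, the contra values exceeded those of Sham, although 3 UMIs in Sham R would have been 21.2 CPM, and the severe infarct had the higher value of each MCAO pair. Over the summed libraries the level in MCAO ipsi was 187 times that in Sham, with a 95% counting interval of 33.5 to 7380 because 1 UMI stood in the denominator, and 23.9 times that in MCAO contra (14.6 to 41.9). The edgeR log2 fold changes were 7.13 ± 0.97 (SE, adjusted p = 0.00113) against Sham and 4.26 ± 0.56 (adjusted p = 0.000993) against MCAO contra. Without Sham L the Sham group had no *Vim* UMI, and the fitted difference was 11.18 (edgeR adjusted p = 0.0234).

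*Nes* had no UMI in either Sham library, where 3 UMIs would have been 16.8 CPM in Sham L and 21.2 in Sham R. Each contra library had a single UMI (2.51 and 3.88 CPM), against 27 and 138 UMIs in the ipsi libraries (40.7 and 93.0 CPM). Both MCAO ipsi libraries thus lay above every other library. The level in MCAO ipsi was at least 8.21-fold higher than in Sham, set against a floor of 3 UMIs over the group, and 25.2 times that in MCAO contra (95% counting interval 6.87 to 210). The edgeR test called *Nes* in both comparisons (adjusted p = 0.0076 and 0.00493; log2 fold change 4.36 ± 0.77, SE, against MCAO contra). The call against Sham was lost without Sham L (adjusted p = 0.0808), without Sham R (0.0525) and without sMCAO ipsi (0.0560), and the call against MCAO contra was lost without mMCAO contra (0.0575) and without sMCAO ipsi (0.0749), in the same edgeR test.

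*Synm* was measured in every library, at 28.0 and 21.2 CPM in Sham, 40.2 and 15.5 in contra and 46.7 and 29.0 in ipsi libraries, from 3 to 43 UMIs. The groups overlapped, with both the lowest and the second highest value in MCAO contra. Its level in MCAO ipsi was 1.38 times that in Sham (95% counting interval 0.665 to 3.32) and 1.13 times that in MCAO contra (0.682 to 1.96), so that changes within these intervals were not excluded. The edgeR log2 fold changes were 0.44 ± 0.60 (SE, adjusted p = 0.695) and 0.21 ± 0.46 (adjusted p = 0.838). With nuclei that carried markers of 2 classes kept, *Synm* passed the test against Sham at a log2 fold change of 1.61 (adjusted p = 0.0361).

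**Figure D1:**
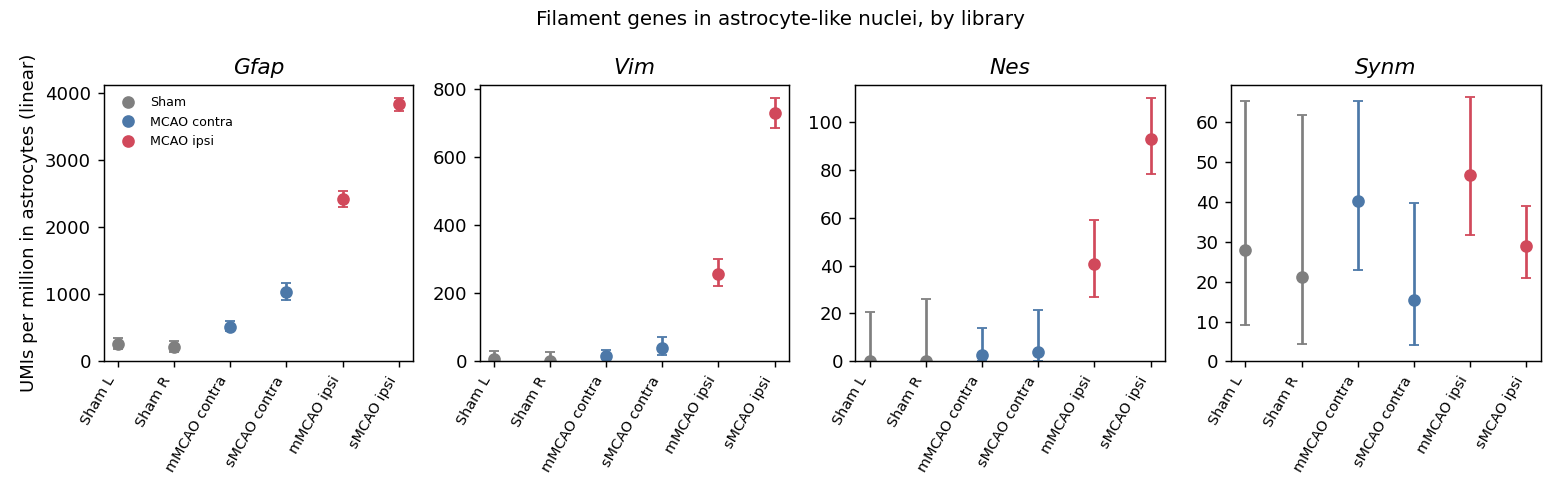
Level of *Gfap*, *Vim*, *Nes* and *Synm* in astrocyte-like nuclei of each library (y axis, CPM, linear, a separate scale for each gene; x axis, library). Points are summed UMIs and bars are exact Poisson 95% intervals, which cover counting error only; *Gfap*, *Vim* and *Nes* were highest in both MCAO ipsi libraries, while *Synm* stayed between 15.5 and 46.7.

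Of the 4 genes, 3 rose in MCAO ipsi against Sham, beside 16.8% of all 6602 genes tested that were called in either direction (8.41% higher, 8.42% lower), and 3 rose against MCAO contra, beside 13% of all genes (7.18% higher, 5.85% lower). Their median log2 fold change against Sham was 5.39, or 3.34 with *Nes* at its bound, while that of all genes was 0.02. *Vim* and *Nes*, with 1 and 0 UMIs in Sham astrocytes, had enough counts to be tested only through the MCAO libraries. The *Gfap* and *Vim* calls in astrocytes were kept without each library in turn.

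MCAO contra against Sham asked whether filament genes differed in the hemisphere opposite the infarct. None of the 6602 genes passed the edgeR test in astrocytes, in which 0% of genes were called (272 were higher and 316 lower when p was left unadjusted, at 0.05), and DESeq2 called 0. *Gfap* had the values above, 520 and 1040 CPM against 257 and 212, a ratio of 3.05 over the summed libraries (95% counting interval 2.39 to 3.94) and a log2 fold change of 1.67 ± 0.36 (SE, unadjusted p = 0.00055 and adjusted p = 0.519, edgeR). *Gfap* passed when only the 4 libraries compared were fitted (edgeR adjusted p = 0.0481), with no filter on low counts (2.34e-10), without mMCAO ipsi (1.60e-06) and without sMCAO ipsi (7.63e-05), and the adjusted p was 0.320 with DESeq2. *Vim* had 16 UMIs in MCAO contra and 1 in Sham, a ratio of 7.82 over the summed libraries whose 95% counting interval of 1.22 to 328 excluded 1, and it did not pass the test across libraries (log2 fold change 2.87 ± 1.76, SE, edgeR adjusted p = 0.665). *Nes*, with 2 UMIs in MCAO contra and none in Sham, was at or under the floor of 3 UMIs in both groups.

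The share of astrocytes with a UMI of each gene was compared after every nucleus of at least 1000 UMIs was thinned to 1000, since depth differed between libraries. *Gfap* was then found in 5.88% of 34 and 11.5% of 26 Sham nuclei, 24.6% of 179 and 41.2% of 80 contra nuclei, and 73.9% of 326 and 74.0% of 523 ipsi nuclei. At 1000 UMIs both infarcted hemispheres had the same share within their 95% Clopper-Pearson intervals (68.8 to 78.6% and 70.0 to 77.7%), whereas the unthinned shares were 72.1% and 80.7%. The unthinned shares in the other libraries were 10.8%, 7.43%, 23.8% and 40.2%.

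*Vim* at matched depth differed between severities. It was found in none of the thinned Sham nuclei (upper 95% limits of 10.3% and 13.2%), 1.68% and 3.75% of contra nuclei, and 15.3% (11.6 to 19.7%) and 36.9% (32.8 to 41.2%) of ipsi nuclei. *Nes* was in 3.07% (1.48 to 5.57%) of mMCAO ipsi and 7.08% (5.03 to 9.62%) of sMCAO ipsi nuclei. At 1000 UMIs *Vim* thus had a higher share in sMCAO than in mMCAO ipsi beyond counting error, while the *Gfap* shares were within it. Thinned to 500 UMIs, which kept all 458 and 553 nuclei, *Gfap* was in 53.3% (48.6 to 57.9%) and 63.5% (59.3 to 67.5%). These *Gfap* intervals did not overlap, and *Vim* was then in 9.39% and 23.3%. Of 24 shares in astrocytes thinned to 500 UMIs, 9 lay outside the 95% interval of the share at 1000. Intervals and floors cover counting error only, since 1 library was on each side.

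The severity of the infarct was compared as values, with no test. In ipsi astrocytes sMCAO exceeded mMCAO by 1.58-fold for *Gfap* (95% counting interval 1.5 to 1.67), 2.83-fold for *Vim* (2.40 to 3.34) and 2.29-fold for *Nes* (1.51 to 3.59). *Synm* had a ratio of 0.620 (0.382 to 1.02). In contra astrocytes *Gfap* in sMCAO was 2.0 times the level in mMCAO (1.66 to 2.41), and in Sham the ratio of R to L was 0.823 (0.502 to 1.33). The interval of the *Vim* ratio lay above that of *Gfap* in ipsi astrocytes, and that of *Nes* overlapped it. These intervals treat each UMI as a separate draw and leave out the spread between nuclei and between rats, so that the genes were not tested against each other.

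Vimentin was also measured outside astrocytes, and OPCs were the class next described. *Vim* in OPCs was at 7.21 CPM (1 UMI) and 0 in Sham, 11.2 and 41.0 CPM (4 and 9 UMIs) in contra, and 85.6 and 215 CPM (37 and 187 UMIs) in ipsi libraries. Both MCAO ipsi libraries exceeded all others. Over the summed libraries the level in MCAO ipsi was 36.4 times that in Sham. The counting interval was 6.47 to 1445, because 1 UMI stood in the denominator. With so few Sham UMIs, *Vim* had enough counts to be tested only through the MCAO libraries. This favoured a rise against Sham in advance. Of the 4 genes only *Vim* had enough counts to be tested in OPCs, and it rose in MCAO ipsi by 4.90 ± 0.95 on the log2 scale against Sham (SE, edgeR adjusted p = 0.00123; 9.44% of 5900 genes called, 4.39% higher and 5.05% lower) and by 2.69 ± 0.47 against MCAO contra (adjusted p = 0.00055; 9.88% called, 5.08% higher and 4.8% lower). The first call was lost without Sham L (log2 fold change 8.94, adjusted p = 0.0648) and with a stricter gate (3.30), and the second without mMCAO contra (1.86, adjusted p = 0.0674). Against Sham, MCAO contra OPCs gave no call for *Vim* (adjusted p = 0.715; 0.271% of genes called, 0.0508% higher and 0.22% lower).

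The other filament genes in OPCs were sparse. *Gfap* was at 7.21 and 0 CPM in Sham, 8.43 and 4.55 in contra, and 32.4 and 109 CPM (14 and 95 UMIs) in ipsi libraries. *Nes* had no UMI in Sham and was at 5.62 and 9.10 CPM in contra (2 UMIs each) and 9.25 and 27.6 CPM (4 and 24 UMIs) in ipsi libraries, and *Synm* had at most 1 UMI in any library. *Gfap* and *Nes* had their highest values in sMCAO ipsi, and neither was tested in OPCs. In Sham 3 UMIs would have been 21.6 CPM in L and 41.1 CPM in R, and of these ipsi values only *Gfap* in sMCAO lay above both. The *Nes* intervals of mMCAO ipsi (2.52 to 23.7) and sMCAO contra (1.10 to 32.9) overlapped.

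The UMIs of astrocyte genes in other classes were set beside these values, because free RNA can carry a UMI into a nucleus that did not make it. In mMCAO and sMCAO ipsi, the OPC level of *Gfap* was 1.34% and 2.85% of the astrocyte level in the same library, that of *Vim* was 33.2% and 29.6%, and that of the 19 summed astrocyte markers was 7.49% and 6.81%. In Sham L and Sham R the share of the astrocyte markers in OPCs was 10.8% and 9.93%. Neurons, which do not make GFAP, held *Gfap* at 0.218% and 0.184% and *Vim* at 1.57% and 1.15% of the astrocyte level in mMCAO and sMCAO ipsi. Their share of the astrocyte markers there was 4.045% and 3.73%. The number of *Vim* UMIs per *Gfap* UMI was 0.106 and 0.190 in astrocytes and 2.64 and 1.97 in OPCs. It was 0.783 and 2.03 in oligodendrocytes and 0.764 and 1.185 in neurons. In OPCs *Vim* was above the share of astrocyte markers and *Gfap* was below it, and in neurons both genes were below it. The marker share does not measure free RNA alone, since the marker *Gpc5* was a leading gene of a cluster of neurons. Astrocytes held only 22.4% and 32.9% of the *Vim* UMIs in mMCAO and sMCAO ipsi. A share of the astrocyte level therefore does not separate free *Vim* RNA from that made in OPCs, and the part of free RNA was not tested.

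In MCAO ipsi oligodendrocytes *Vim*, *Gfap* and *Nes* were lower than in astrocytes and OPCs of the same library. *Vim* was at 4.58 CPM (4 UMIs) and 0 in Sham, 0.583 and 5.59 CPM (1 and 6 UMIs) in contra, and 18.9 and 63.3 CPM (18 and 118 UMIs) in ipsi libraries. *Gfap* was at 3.43 and 0 CPM in Sham, 4.08 and 2.79 in contra, and 24.2 and 31.1 CPM (23 and 58 UMIs) in ipsi libraries. Both MCAO ipsi libraries exceeded the other 4 for both genes. *Nes* was at 5.72 and 3.16 CPM (5 UMIs and 1 UMI) in Sham, 1.17 and 0.931 (2 UMIs and 1 UMI) in contra, and 3.16 and 15.6 CPM (3 and 29 UMIs) in ipsi libraries, so that only sMCAO ipsi lay above Sham. Its summed level in MCAO ipsi was 10.6 times that in MCAO contra (95% counting interval 3.31 to 53.9) and 2.26 times that in Sham (0.930 to 6.60). *Synm* had at most 2 UMIs in any library.

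Against Sham, both genes were called in oligodendrocytes: the log2 fold change was 3.42 ± 0.62 for *Gfap* (SE, edgeR adjusted p = 0.0127) and 3.66 ± 0.95 for *Vim* (adjusted p = 0.0442), beside 8.21% of 9426 genes called (2.38% higher, 5.83% lower). *Gfap* and *Vim*, with 3 and 4 UMIs over both Sham libraries, had enough counts to be tested only through the MCAO ipsi libraries. This favoured a rise in advance. Against MCAO contra *Gfap* was called at 2.93 ± 0.45 (adjusted p = 0.0399; 0.477% of genes called, 0.371% higher and 0.106% lower), and *Vim* was not at 4.02 ± 0.79 (adjusted p = 0.0641). With the rat pool as a block, *Vim* against MCAO contra was called at 3.79 (edgeR adjusted p = 0.0101). The *Gfap* and *Vim* calls against Sham were lost without Sham L (adjusted p = 0.164 and 0.291, with fitted differences of 8.05 and 8.68 against a library with no UMI) and without Sham R (0.149 and 0.262), and that of *Vim* also without sMCAO ipsi (2.44, adjusted p = 0.128). The *Gfap* call against MCAO contra was lost without Sham L (adjusted p = 0.229), Sham R (0.232), mMCAO contra (0.237) or sMCAO contra (0.419). *Gfap* in oligodendrocytes of mMCAO and sMCAO ipsi was 0.998% and 0.812% of the astrocyte level, and *Vim* was 7.35% and 8.70%. The *Gfap* shares were below the 1.96% and 1.54% of the astrocyte markers and above the shares in neurons. Neurons were deeper, at a median of 4031 and 6683 UMIs against 706.5 and 1129 in oligodendrocytes. Unthinned, a *Gfap* UMI was found in more neurons (2.258% and 4.821%) than oligodendrocytes (1.745% and 3.614%). Thinned to 1000 UMIs, it was found in 0.675% and 0.977% of neurons and 1.429% and 1.479% of oligodendrocytes. After UMIs at the neuronal profile of each library were subtracted, *Vim* against Sham (3.40) and *Gfap* against MCAO contra (2.76) changed little in size and no longer passed. That profile holds almost no *Gfap* or *Vim*, and the part of free astrocyte RNA in the oligodendrocyte values was not tested. MCAO contra against Sham gave no call in edgeR (0% of genes; 408 higher and 512 lower when p was left unadjusted, at 0.05), and DESeq2 called 4 genes.

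**Figure D2:**
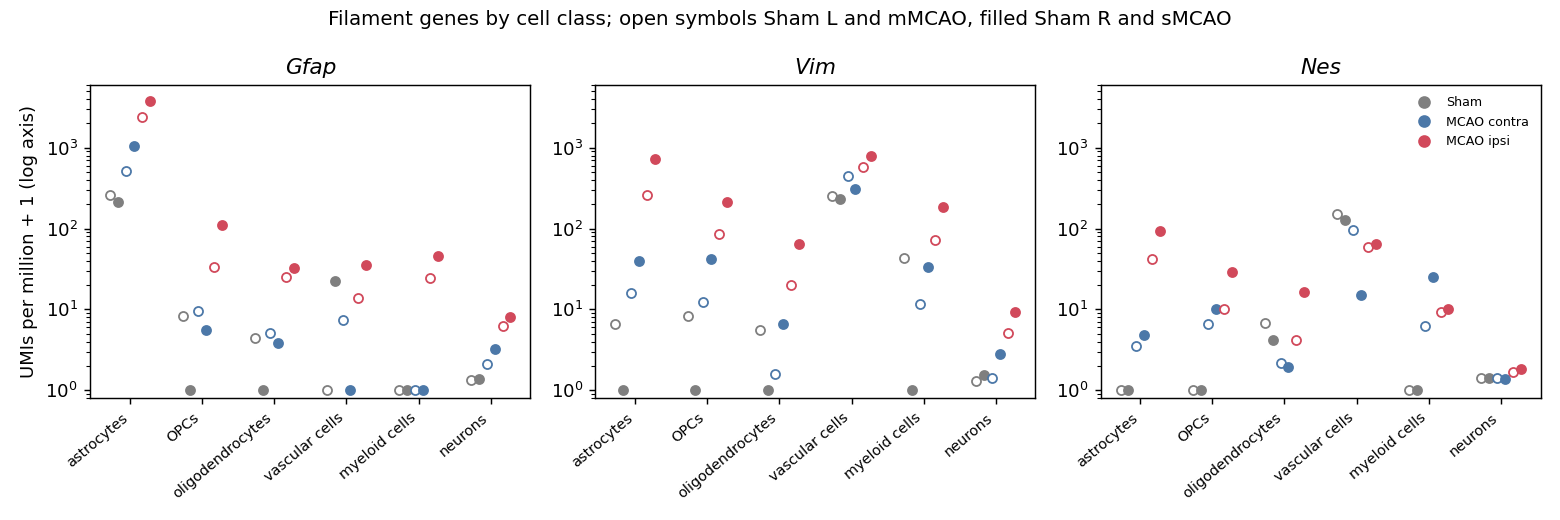
Level of *Gfap*, *Vim* and *Nes* in 6 nucleus classes (y axis, CPM plus 1, log axis; x axis, class), 1 point per library, with open symbols for Sham L and mMCAO and filled symbols for Sham R and sMCAO; a point at 1 marks a library with no UMI. *Gfap* was highest in astrocytes, *Vim* was high in vascular cells of all libraries, and *Nes* in vascular cells was highest in Sham.

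Vascular cells carried *Vim* in every library. The level was 252 and 234 CPM in Sham, 441 and 308 in contra, and 582 and 783 in ipsi libraries, from 11 to 562 UMIs, and the groups did not overlap. *Vim* rose by 1.45 ± 0.34 on the log2 scale in MCAO ipsi against Sham (SE, edgeR adjusted p = 0.0228; 6.19% of 3875 genes called, 1.91% higher and 4.28% lower), and its difference from MCAO contra was 0.84 ± 0.30 (adjusted p = 0.201; 0.568% called, 0.284% in each direction). The call against Sham was lost without Sham L (1.53, adjusted p = 0.203) and without Sham R (1.39, adjusted p = 0.125) and under 6 other alternatives, and the difference from MCAO contra passed without mMCAO ipsi (1.03, adjusted p = 0.00796). MCAO contra against Sham gave *Vim* a log2 fold change of 0.60 (edgeR adjusted p = 0.881) and called 0% of genes, with 116 higher and 89 lower when p was left unadjusted, at 0.05, and none by DESeq2. Endothelial nuclei alone had 259, 192, 496, 349, 714 and 990 CPM of *Vim* in the same order of libraries.

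*Nes* in vascular cells ran the other way in its values. The level was 149 and 128 CPM (13 and 6 UMIs) in Sham, 94.6 and 14.0 CPM (15 UMIs and 1 UMI) in contra, and 57.6 and 64.1 CPM (9 and 46 UMIs) in ipsi libraries. Both Sham libraries were above the other 4, and MCAO contra and ipsi overlapped. The edgeR log2 fold change in MCAO ipsi against Sham was -1.22 ± 0.55 (SE, unadjusted p = 0.0434, adjusted p = 0.232), and it did not pass the test. Endothelial nuclei held 13, 6, 15, 1, 7 and 27 of these UMIs, at 153, 144, 111, 18.4, 63.3 and 57.1 CPM. Fibroblast and mural nuclei had none in Sham, from 2 and 1 nuclei in Sham L and 3 and 5 in Sham R. *Gfap* in vascular cells had 27 UMIs over both MCAO ipsi libraries, and *Synm* was at 0 to 14.0 CPM.

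Myeloid cells, of which there were 14 and 9 in Sham L and Sham R and 935 and 1648 in mMCAO and sMCAO ipsi, were too few in Sham for a fit. *Vim* was at 42.3 CPM (1 UMI) and 0 in Sham, 10.5 and 32.3 CPM (2 and 4 UMIs) in contra, and 72.0 and 184 CPM (79 and 402 UMIs) in ipsi libraries. The single Sham UMI gave a level within the range of the other libraries. A fit to the 4 MCAO libraries, added after the data were seen, called 0% of 9429 genes in edgeR (368 were higher and 333 lower when p was left unadjusted, at 0.05), and gave *Vim* a log2 fold change of 2.63 ± 0.74 (SE, adjusted p = 0.63). Without mMCAO ipsi *Vim* passed, in a fit whose ipsi group held 1 library and so had no spread of its own. Leaving out each library in turn gave *Vim* log2 fold changes of 1.85 to 3.51. *Gfap* had no UMI in Sham or contra myeloid nuclei, where 3 UMIs would have been 127 and 437 CPM in Sham and 15.8 and 24.2 in contra. It was at 23.7 and 45.2 CPM in mMCAO and sMCAO ipsi, both under the Sham floors, and only sMCAO lay above both contra floors. These values were 0.977% and 1.18% of the astrocyte level. *Vim* in the same nuclei was at 27.9% and 25.2% of it, beside 4.33% and 3.37% for the astrocyte markers.

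Severity was compared in these classes too. *Vim* in sMCAO ipsi was 2.51 times its level in mMCAO ipsi in OPCs (95% counting interval 1.76 to 3.68), 3.34 times (2.03 to 5.84) in oligodendrocytes, 2.55 times (2.0 to 3.29) in myeloid cells and 1.35 times (1.08 to 1.70) in vascular cells. In OPCs *Gfap* in sMCAO ipsi was 3.38 times (1.92 to 6.41) and *Nes* 2.98 times (1.03 to 11.8) its level in mMCAO ipsi. *Vim* was thus higher in the severe infarct in each of these 4 classes, a description with no test.

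Ependymal nuclei, 7 to 78 per library, held *Vim* at 157 and 0 CPM (2 and 0 UMIs) in Sham, 304 and 28.3 (21 UMIs and 1 UMI) in contra, and 246 and 651 (14 and 95 UMIs) in ipsi libraries. Both Sham values and that of sMCAO contra were under the floor of 3 UMIs, which was 235, 456 and 85.0 CPM. Neurons had *Gfap* at 0.32 and 0.36 CPM in Sham, 1.12 and 2.27 in contra, and 5.28 and 7.05 in ipsi libraries. *Vim* in neurons was at 0.294 and 0.556 CPM in Sham, 0.43 and 1.83 in contra, and 4.03 and 8.35 in ipsi libraries. Both genes were thus highest in MCAO ipsi in neurons too, and the part of free RNA in these values was not tested. *Nes* in neurons was at most 0.813 CPM. *Synm* in neurons was at 1.62 to 2.49 CPM in all 6 libraries, from 46 to 102 UMIs per library.

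Over all nuclei, *Gfap* was at 1.98 and 2.02 CPM in Sham, 6.70 and 13.4 in contra, and 50.04 and 212 in ipsi libraries. *Vim* was at 1.25, 1.33, 3.23, 4.29, 17.2 and 102 CPM in the same order, *Nes* at 0.888, 0.749, 0.845, 0.846, 2.29 and 12.4, and *Synm* at 2.03, 1.76, 2.77, 2.30, 2.5 and 3.84. In such whole-library sums a change in the number of cells of a class and a change in RNA per cell cannot be told apart. Astrocytes held 72.3% and 82.9% of the *Gfap* UMIs in mMCAO and sMCAO ipsi. *Vim* was spread over more classes. Astrocytes held 22.4% and 32.9%, neurons 18.2% and 4.69%, vascular cells 11.9% and 17.1%, myeloid cells 10.4% and 12.2%, and nuclei with no class 28.0% and 20.9%.

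**Figure D3:**
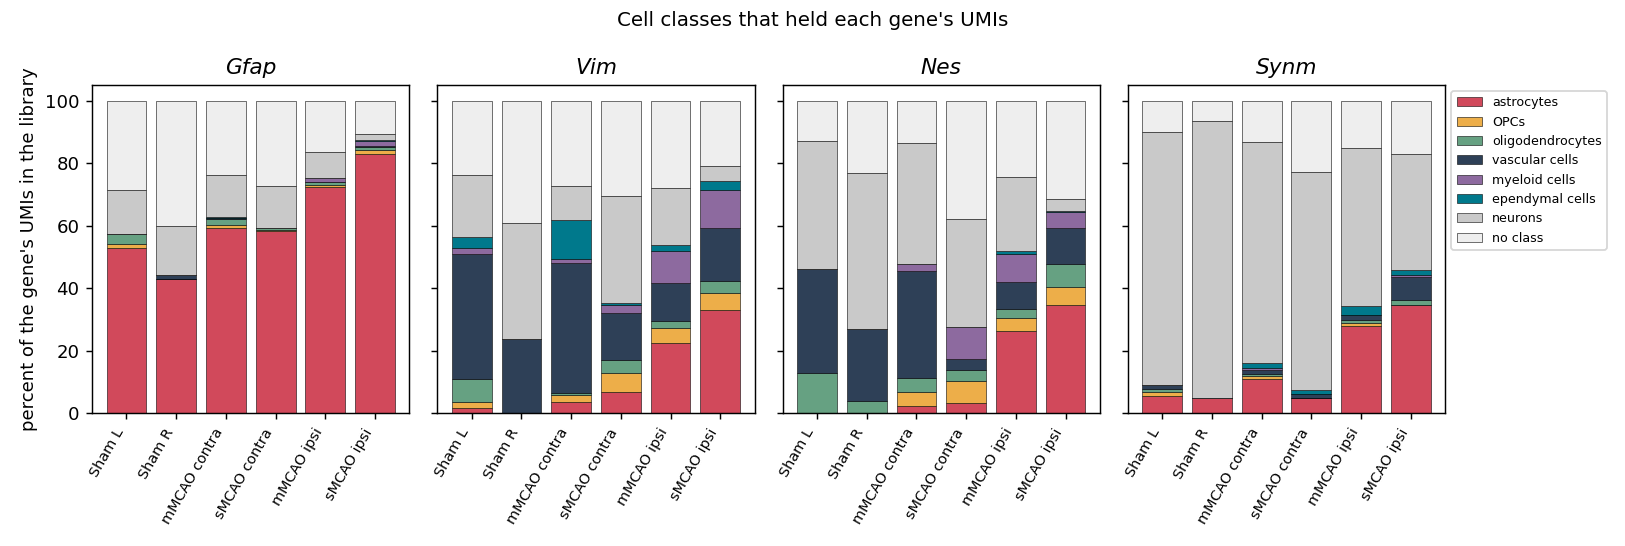
Percent of each gene's UMIs (y axis, linear) that lay in each nucleus class, stacked to 100 in each library (x axis), for *Gfap*, *Vim*, *Nes* and *Synm*. Astrocytes held most *Gfap* in both MCAO ipsi libraries (72.3% and 82.9%), *Vim* was divided over several classes, and neurons held more *Synm* UMIs than any other class in all 6 libraries.

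Within astrocytes and OPCs, nuclei with at least 2 UMIs of 18 cell cycle genes were compared with the rest after thinning to 1000 UMIs, an alternative added after the data were seen. These nuclei made up 22.7% of the thinned astrocytes in mMCAO ipsi and 25.2% in sMCAO ipsi. *Gfap* was lower in them, at 2027 CPM (95% Poisson interval 1716 to 2379) against 2944 (2736 to 3164) in mMCAO ipsi and at 2485 (2223 to 2769) against 4777 (4563 to 4999) in sMCAO ipsi. The intervals did not overlap in either library.

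*Vim* ran in the opposite direction in mMCAO ipsi, where it was at 500 CPM (352 to 689) in nuclei with cell cycle UMIs and 155 (110 to 212) in those without. In sMCAO ipsi the values were 788 (644 to 955) and 622 (546 to 705), whose intervals overlapped. *Nes* was at 54.1 against 23.8 CPM in mMCAO ipsi and 129 against 66.5 in sMCAO ipsi, also with overlapping intervals. In OPCs, of which 50.6% and 38.8% had cell cycle UMIs, *Vim* was at 132 (68.1 to 230) against 44.9 CPM (12.3 to 115) in mMCAO ipsi and 312 (227 to 419) against 90.1 (55.0 to 139) in sMCAO ipsi. These are values of nuclei within 1 library, with counting error only, and no test across libraries was run.

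**Figure D4:**
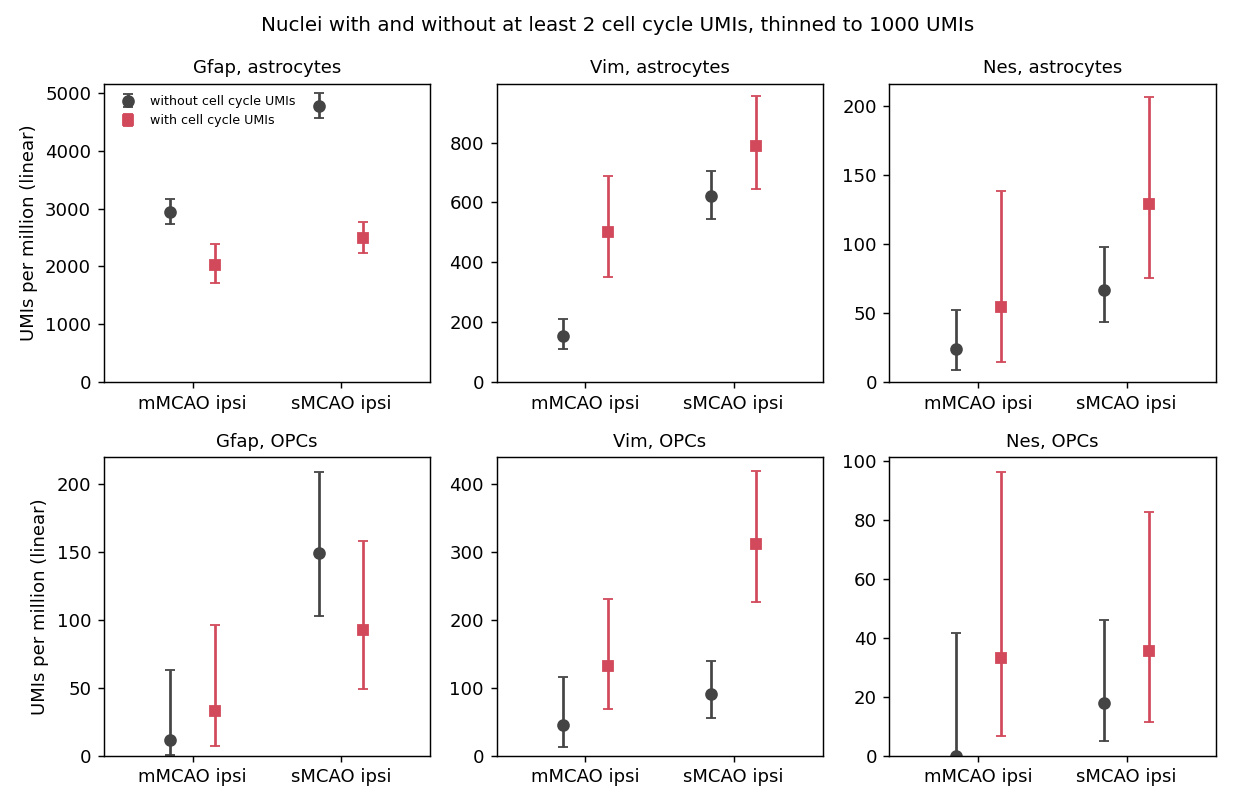
Level of *Gfap*, *Vim* and *Nes* (y axis, CPM, linear, a separate scale for each panel) in astrocytes (top) and OPCs (bottom) of mMCAO ipsi and sMCAO ipsi (x axis), for nuclei with (red squares) and without (grey circles) at least 2 cell cycle UMIs, thinned to 1000 UMIs. Bars are exact Poisson 95% intervals; *Gfap* in astrocytes was lower in nuclei with cell cycle UMIs in both libraries, and *Vim* in OPCs was 312 against 90.1 in sMCAO ipsi.

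*Gfap* and *Vim* were also counted in the same nuclei. In sMCAO ipsi astrocytes *Vim* was found in 55.4% of the nuclei with a *Gfap* UMI and in 25.2% of those without, whose median depths were 2581.5 and 1676 UMIs. In mMCAO ipsi the shares were 20.3% and 11.7%, at 1418 and 1019 UMIs. *Nes* was found in 21.2% of *Vim*-positive and 10.0% of *Vim*-negative astrocytes of sMCAO ipsi, at 2988.5 and 1862 UMIs. In mMCAO ipsi these shares of *Nes* were 13.4% and 3.19%, at 1811.5 and 1189 UMIs. *Nes* was found in 15.3% and 16.8% of astrocytes with and without *Gfap* in sMCAO ipsi, and in 5.45% and 3.91% in mMCAO ipsi, where 18 and 5 nuclei carried it. The *Gfap*-positive and *Vim*-positive nuclei were deeper than the others, and the part of depth in these shares was not tested.

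Across 34 sums of a class in a library, the genes whose log2 level was most like that of *Gfap*, by Pearson's r among 7562 genes, were *Aqp4* (0.95), *Slc14a1* (0.93), *Slc39a12* (0.92), *Mlc1* (0.91) and AABR07029596.1 (0.91), of which *Aqp4*, *Slc39a12* and *Mlc1* were among the astrocyte markers of the gate. For *Vim* they were the tubulin *Tubb6* (0.94), the oncostatin M receptor *Osmr* (0.92), the actin-binding filamin *Flna* (0.92), *Trim47* (0.92) and *Zc3h10* (0.90). For *Nes* they were *Osmr* (0.90), *Trim47* (0.89), *Vim* (0.89), *Klf6* (0.89) and *Flna* (0.88). For *Synm* they were *Efemp1* (0.91), *Frem2* (0.90), ENSRNOG00000007345 (0.89), *Aox1* (0.88) and the gate marker *Gja1* (0.86). *Vim* and *Nes* thus shared *Osmr*, *Trim47* and *Flna*, whereas r between *Gfap* and *Vim* was 0.37 and between *Gfap* and *Synm* 0.68. The sums share libraries and depth, so that r is a description.

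Genes that act with the filaments were read from the same fit of MCAO ipsi against Sham in astrocytes, in which 16.8% of all genes were called (8.41% higher, 8.42% lower) and the median log2 fold change was 0.02. Of 14 other intermediate filament genes in the files 2 had enough counts and both rose, the nuclear lamins *Lmna* (5.59 and 7.06 CPM in Sham L and Sham R, 33.1 and 55.3 in mMCAO and sMCAO ipsi; log2 fold change 2.75, edgeR adjusted p = 0.0273) and *Lmnb1* (11.2 and 21.2, against 66.3 and 96.4; 2.30, adjusted p = 0.0305). Over both Sham libraries *Lmna* had 2 UMIs, under the floor of 3, and *Lmnb1* had 5. Both lamins reached the count limit through the MCAO libraries, which favoured a rise in advance. Keratins, desmin and neurofilaments were below the count limit in astrocytes. Of 9 linkers and filament-binding proteins tested 4 rose and none fell, with a median log2 fold change of 0.99. They were *Dst*, a giant linker of filaments to other structures (677 and 776 against 1552 and 1513 CPM; 0.99, adjusted p = 0.00479), the annexin *Anxa2* and its partner *S100a10* (3.31, adjusted p = 0.0105), and the small heat shock protein *Hspb1*. *Hspb1* and *Anxa2* had no UMI in Sham and were at 190 and 63.3 CPM in sMCAO ipsi, at least 16.0-fold and 6.07-fold higher over both MCAO ipsi libraries. *S100a10* had 2 UMIs in Sham. *Hspb1*, *Anxa2* and *S100a10* thus also reached the count limit through the MCAO libraries.

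Again beside 16.8% of all genes called (8.41% higher), of 10 kinases and phosphatases of filament proteins tested, *Pak2* (1.27), *Rock2* (0.85) and *Camk2d* (0.74) rose and *Prkce* fell (-0.91), on the log2 scale, and the median was 0.43. Of 10 tested regulators of *Gfap* and *Vim* 3 rose and none fell, again beside 8.41% of all genes higher, with a median of 0.70. They were *Stat3*, the factor that carries cytokine signals to the *Gfap* gene (72.7 and 127 CPM in Sham L and Sham R, 232 and 250 in mMCAO and sMCAO ipsi; 1.21, edgeR adjusted p = 0.00953), the zinc finger factor *Klf6* (3.23) and *Nfia* (0.72), a factor of glial fate. Of 8 neural progenitor genes tested 3 rose. They were *Fabp7*, a fatty acid carrier of radial glia (3.58), *Tnc*, a matrix protein (2.56, edgeR adjusted p = 0.00449), and *Notch1* (1.59). *Tnc* was at 95.1 and 120 CPM in Sham L and Sham R and 339 and 990 in mMCAO and sMCAO ipsi. *Klf6* and *Fabp7* had 4 UMIs each over both Sham libraries and reached the count limit through the MCAO libraries.

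Of 11 pan-reactive astrocyte genes 5 were tested and 5 rose, with a median log2 fold change of 5.72, or 4.21 with genes at 0 in Sham at their bound: *Cd44*, a hyaluronan receptor (5.72, adjusted p = 0.000126), *Aspg*, an asparaginase (4.93), *Cp*, the copper carrier ceruloplasmin (4.21), *Hspb1* and *Osmr*, which had no UMI in Sham and was at least 10.6-fold higher in MCAO ipsi. In Sham *Cd44* had 3 UMIs, *Aspg* 1 and *Hspb1* and *Osmr* 0, so that these genes reached the count limit through the MCAO libraries. The 5 of 5 is therefore no evidence about the list. The study had described *Gfap*, *Vim*, *Osmr*, *Cd44* and *Cp*, known markers of reactive astrocytes, in astrocytes of these same libraries. It had also described *Hspb1*, *Rock2*, *Cdh10* and the receptor genes *Gria2* and *Grin2c* there, and *Vim*, *Cd44* and *Tnc* in OPCs. The direction of these genes here is therefore no independent evidence. Of 15 homeostatic astrocyte genes tested 1 rose, the water channel *Aqp4* (101 and 155 CPM in Sham L and Sham R, 630 and 966 in mMCAO and sMCAO ipsi; 2.58), and 3 fell, the glutamate receptor subunits *Gria2* (-1.17) and *Grin2c* (-0.95) and the cadherin *Cdh10* (-0.70), with a median of -0.53. Of all genes tested 8.41% were higher and 8.42% lower, and the 1 of 15 homeostatic genes higher is close to that share. *Gpc5*, *Slc1a2*, *Slc1a3* and *Aqp4* in this list were gate markers, and the neuronal share of astrocyte UMIs given above was highest in Sham; its part in the lower values was not tested.

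Against MCAO contra, where 13% of all genes were called (7.18% higher, 5.85% lower), the same lists gave 1 of 2 other filament genes higher, 5 of 9 linkers higher (among them *Plec*, 1.79), 2 of 10 kinases higher, 1 of 10 regulators higher (*Klf6*, 2.97), 2 of 8 progenitor genes higher, 5 of 5 pan-reactive genes higher, and 1 of 15 homeostatic genes higher and 8 lower. The same genes were tested as against Sham, so that what was said of the count limit holds here too. In MCAO contra against Sham none of these genes was called in astrocytes. The 1 of 10 regulators and the 1 of 15 homeostatic genes higher are close to the share of all genes higher. Of 7 regulators tested in OPCs, where 9.44% of all genes were called (4.39% higher), 4 rose in MCAO ipsi against Sham, *Stat3* (36.1 and 0 CPM in Sham L and Sham R, 97.2 and 169 in mMCAO and sMCAO ipsi; 2.47, edgeR adjusted p = 0.00669), *Nfia* (1.14), *Nfib* (0.73) and *Hif1a* (1.43). *Tnc* rose in OPCs by 4.21 on the log2 scale (edgeR adjusted p = 1.98e-05), and *Cd44* by 4.91 (adjusted p = 0.000277). Over the 3 pan-reactive genes tested in OPCs the median was 4.91, or 1.98 with genes at 0 in Sham at their bound. A fitted size in that list can therefore rest on Sham libraries with no UMI.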

How the data were processed

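Raw UMI counts of nuclei from frozen coronal brain slices were deposited by the authors, who prepared libraries with a 10x Genomics 5′ kit, sequenced them on 1 flow cell and counted reads, introns included, with Cell Ranger 7.0.0 on mRatBN7.2. The annotation release is not given in the sources used here. The deposited counts precede the authors' removal of free RNA, nuclei and doublets, and their quality limits were applied here.

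The 4 filament genes, the gene lists and the rules were chosen with earlier results of these data known. Named genes were the 4 members, at most 4 called genes per list and direction with the largest log2 fold change in MCAO ipsi against Sham astrocytes, and the 5 genes most like each member (log2 of CPM plus 5, above 50 CPM in at least 3 sums). Outside this rule, *Cp* in astrocytes, *Plec* against MCAO contra, and *Stat3*, *Nfia*, *Nfib*, *Hif1a*, *Tnc* and *Cd44* in OPCs were also named. Nuclei were classed from 127 of 136 listed marker genes found in the files; the others were not analysed here. A class needed a summed evidence (-log10 of Poisson tails, at most 4 per gene) of 5 from 2 markers, at most 0.5 of it for another class, and fewer than 50 neuron marker UMIs per 10000. No doublet caller was run: nuclei with markers of 2 classes were left out. Leiden clusters (46, without the filament genes) were an alternative.

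UMIs were summed per class and library and tested with edgeR 4.0.16 (quasi-likelihood F test, TMM, filterByExpr, all 6 libraries), where each library held at least 20 nuclei; myeloid cells were fitted to the 4 MCAO libraries only. Genes were called at a Benjamini-Hochberg adjusted p under 0.05 over all genes tested and a log2 fold change of 0.6 or more in size. The test was checked on simulated counts with 200 changed genes. Alternatives were DESeq2 1.42.0, its size factors, no filter, 4 libraries, a stricter gate (evidence 8 from 3 markers, at most 0.3 for another class), clusters, nuclei with markers of 2 classes kept, free RNA (UMIs at the neuronal profile) subtracted, each library left out, and the rat pool as a block. Contra and ipsi libraries of the same number came from the same rats, as the study's tissue sampling gives, so that the pool pairs them; deviations of the paired libraries correlated at -0.06 in astrocytes, 0.04 in OPCs, -0.07 in oligodendrocytes, -0.0031 in vascular cells and 0.05 in myeloid cells. Percentages of nuclei have exact Clopper-Pearson intervals and CPM exact Poisson intervals at 95%; floors are 3 UMIs.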

Additional observations from a re-analysis of the deposited data

Results flagged for a closer look

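Signal of *Gfap* and *Vim* above Sham in both MCAO ipsi libraries, and of *Nes* in 1 of them, lay in nuclei that no comparison used. In nuclei with no class *Gfap* was at 55.3 CPM in mMCAO ipsi and 112 CPM in sMCAO ipsi, against 4.84 and 7.88 CPM in Sham L and Sham R. *Vim* in the same nuclei was at 32.3 and 104 CPM, against 2.52 and 5.06 CPM in Sham. *Nes* was at 19.1 CPM in sMCAO ipsi (126 of the library's 400 UMIs, 31.5%) and 3.77 in mMCAO ipsi, against 0.968 and 1.69 CPM in Sham, and only in sMCAO ipsi did the counting interval lie above those of Sham.

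The *Nes* differences from Sham had opposite signs in 2 classes. The log2 fold change in MCAO ipsi was 8.18 in astrocytes, fitted against Sham libraries with no UMI and therefore no bound, and -1.22 in vascular cells, where both MCAO ipsi libraries were below both Sham libraries. The difference between the classes was not tested.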

How the results depend on the processing

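Comparisons are written ipsi–Sham, ipsi–contra and contra–Sham, each value in brackets is the one reported, and the ends of a range that leaves out 1 library at a time name that library. The *Gfap* and *Vim* calls in astrocytes, ipsi–Sham and ipsi–contra, passed under every alternative that gave an adjusted p. Of 387 comparisons of a filament gene's log2 fold change with an alternative, 345 kept direction and side of the threshold, 11 newly passed, 31 no longer passed and none changed direction while called; the causes were not tested except where fewer libraries or genes entered. Where an arm was left with 1 library, that library was assumed to vary like the other groups. The replicate block (the rat pool) moved a count of called genes by over 1.5 times, or changed a call, in oligodendrocytes ipsi–contra alone. "2-class nuclei" are those with markers of 2 classes, kept in that alternative. Depth limits *Nes* and *Vim* in Sham, with 0 and 1 UMIs in astrocytes.

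In astrocytes the number of called genes ipsi–Sham (1111) was 1852 with 2-class nuclei, 690 with free RNA subtracted and 662 with DESeq2, and 341 (without Sham L) to 1626 (without mMCAO ipsi). In astrocytes the number of called genes ipsi–contra (860) was 1328 with no filter and 383 with DESeq2, and 331 (without mMCAO contra) to 1535 (without mMCAO ipsi). In astrocytes the number of called genes contra–Sham (0) was 33 with no filter and 9 with 4 libraries, and 0 (without Sham L) to 107 (without mMCAO ipsi). In astrocytes *Nes* ipsi–Sham (8.18) was 6.73 (without sMCAO ipsi) to 8.49 (without mMCAO ipsi). In astrocytes *Synm* ipsi–Sham (0.44) was 1.61 with 2-class nuclei. In astrocytes *Nes* ipsi–contra (4.36) was 3.54 (without sMCAO ipsi) to 4.75 (without mMCAO ipsi). In astrocytes *Gfap* contra–Sham (1.67) was 1.75 with no filter and 1.69 with 4 libraries, and 1.13 (without sMCAO contra) to 2.12 (without mMCAO contra). In OPCs the number of called genes ipsi–Sham (557) was 122 with the stricter gate, 958 with 2-class nuclei, 307 with free RNA subtracted and 233 with DESeq2, and 114 (without Sham L) to 845 (without mMCAO ipsi). In OPCs the number of called genes ipsi–contra (583) was 350 with the stricter gate, 358 with free RNA subtracted and 134 with DESeq2, and 154 (without mMCAO contra) to 979 (without mMCAO ipsi). In OPCs the number of called genes contra–Sham (16) was 53 with no filter, 82 with 4 libraries, 0 with the stricter gate, 0 in clusters, 2 with 2-class nuclei, 9 with free RNA subtracted and 7 with DESeq2, and 0 (without Sham L) to 87 (without sMCAO ipsi). In OPCs *Vim* ipsi–Sham (4.90) was 3.30 with the stricter gate, and 4.00 (without sMCAO ipsi) to 8.94 (without Sham L). In OPCs *Vim* ipsi–contra (2.69) was 1.82 (without sMCAO ipsi) to 3.66 (without sMCAO contra). In oligodendrocytes the number of called genes ipsi–Sham (774) was 1472 with no filter, 335 with 4 libraries, 512 with the stricter gate and 239 with free RNA subtracted, and 0 (without Sham L) to 2121 (without mMCAO ipsi). In oligodendrocytes the number of called genes ipsi–contra (45) was 917 with no filter, 0 with 4 libraries, 119 with the replicate block, 25 with the stricter gate, 437 in clusters, 0 with 2-class nuclei and 131 with DESeq2, and 0 (without Sham L) to 1662 (without mMCAO ipsi). In oligodendrocytes the number of called genes contra–Sham (0) was 228 with no filter, 331 with 4 libraries, 50 in clusters, 10 with free RNA subtracted and 4 with DESeq2, and 0 (without Sham L) to 378 (without mMCAO ipsi). In oligodendrocytes *Gfap* ipsi–Sham (3.42) was 2.97 (without Sham R) to 8.05 (without Sham L). In oligodendrocytes *Vim* ipsi–Sham (3.66) was 3.64 with 4 libraries, 5.03 with the stricter gate and 3.40 with free RNA subtracted, and 2.44 (without sMCAO ipsi) to 8.68 (without Sham L). In oligodendrocytes *Gfap* ipsi–contra (2.93) was 2.92 with 4 libraries, 3.35 with 2-class nuclei and 2.76 with free RNA subtracted, and 2.68 (without sMCAO ipsi) to 3.22 (without mMCAO contra). In oligodendrocytes *Vim* ipsi–contra (4.02) was 3.97 with no filter, 3.79 with the replicate block and 4.24 in clusters, and 2.78 (without sMCAO ipsi) to 5.94 (without sMCAO contra). In vascular cells the number of called genes ipsi–Sham (240) was 410 with no filter, 85 with 4 libraries, 1 with the stricter gate, 0 in clusters, 0 with 2-class nuclei, 46 with free RNA subtracted and 109 with DESeq2, and 54 (without Sham L) to 574 (without mMCAO ipsi). In vascular cells the number of called genes ipsi–contra (22) was 217 with no filter, 3 with 4 libraries, 4 with the stricter gate, 0 in clusters, 0 with 2-class nuclei, 8 with free RNA subtracted and 5 with DESeq2, and 8 (without mMCAO contra) to 407 (without mMCAO ipsi). In vascular cells the number of called genes contra–Sham (0) was 13 with no filter and 5 with 4 libraries, and 0 (without Sham L) to 39 (without mMCAO ipsi). In vascular cells *Vim* ipsi–Sham (1.45) was 1.44 with 4 libraries, 1.66 with the stricter gate, 1.42 in clusters, 1.54 with 2-class nuclei, 1.27 with free RNA subtracted and 1.43 with DESeq2, and 1.22 (without sMCAO ipsi) to 1.67 (without mMCAO ipsi). In vascular cells *Vim* ipsi–contra (0.84) was 0.58 (without sMCAO ipsi) to 1.14 (without mMCAO contra). In myeloid cells the number of called genes ipsi–contra (0) was 0 (without mMCAO contra) to 889 (without mMCAO ipsi). In myeloid cells *Vim* ipsi–contra (2.63) was 1.85 (without sMCAO ipsi) to 3.51 (without sMCAO contra).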
